A study of Homo sapiens with 6 samples.

Results

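G3BP2 and 9 other genes for RNA-binding proteins of stress granules were examined in KGN cells, a human line from a granulosa cell tumour of the ovary. The genes were G3BP1, G3BP2, CAPRIN1, TIA1, TIAL1, ATXN2, ATXN2L, FMR1, FXR1 and FXR2, 10 of the 20030 gene names in the count table. G3BP2 was chosen by its counts, which were strongly higher with SNHG5 siRNA, so its values are a description without a test; the other 9 were listed by function. All 10 were among the 12508 genes with enough counts to be tested. The 3 control libraries came from wild-type KGN cells transfected with a negative control siRNA, and the 3 SNHG5 siRNA libraries from KGN cells that received siRNA to knock down the long noncoding RNA SNHG5. RNA was taken 48 h after transfection in each group, so the control cells also carried an siRNA and had been through transfection. The labels describe the siRNA groups only as knockdown and wild type and do not say how many siRNA sequences were used; the level of SNHG5 was not analysed here. Its knockdown is therefore unchecked, and the groups are called by their siRNA.

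Stress granules are clusters of untranslated mRNA and protein that form in the cytoplasm when translation initiation stalls, most often after phosphorylation of eIF2 alpha. G3BP1 and its paralog G3BP2 are the scaffolds that bind RNA and drive their assembly; caprin-1, the product of CAPRIN1, binds the same region of G3BP as the deubiquitinase USP10. TIA-1 and TIAR, from TIA1 and TIAL1, bind U-rich RNA and repress translation, ataxin-2 and its relative from ATXN2L bind mRNA and poly(A)-binding protein, and FMRP, FXR1P and FXR2P, from FMR1, FXR1 and FXR2, form the fragile X family of translation regulators.

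The series title names miR-92a-3p, a microRNA that recognises targets through its seed, and an earlier scan of these data for 7-base words in 3′ UTRs had put TCGGAGA with genes that were higher and ACACGAA with genes that were lower. The 3′ UTRs of the 10 genes (GENCODE v29, GRCh38) were therefore read for these words and for GTGCAAT, the match to the seed, on the transcript strand. The sequences below are the microRNA, with its seed (bases 2 to 8) in capitals, and matches in these genes, with the matching bases in capitals, each from the transcript strand, 5′ to 3′.
hsa-miR-92a-3p (RefSeq, GRCh38.p14): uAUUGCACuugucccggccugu
G3BP2, 2 seed matches, chr4:75645028-75645057 minus strand: acaaataGTGCAATttGTGCAATtggagaa
G3BP2, TCGGAGA, chr4:75644093-75644121 minus strand: tactgcaatttTCGGAGAaaagaacagca
TIA1, seed match, chr2:70211355-70211383 minus strand: gagaatcctcaGTGCAATcattattttga
FMR1, seed match, chrX:147950571-147950599 plus strand: gtttggttataGTGCAATatattttgtat
FXR1, seed match, chr3:180977095-180977123 plus strand: ggttgtttgatGTGCAATatgtttttgta

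The 2 seed matches of G3BP2 lay 2 bases apart, at positions 380 and 389 of a 3′ UTR of 2648 bases, and its TCGGAGA lay at position 1320. The seed matches were in all 3 basic transcripts of G3BP2 that have a 3′ UTR, and TCGGAGA was in 2 of them. G3BP2 was the one gene of the 10 with TCGGAGA, and 0 of the 10 held ACACGAA. A seed match was found in at least 1 annotated 3′ UTR of 5 of the 10, G3BP2, TIA1, TIAL1, FMR1 and FXR1. Of the basic transcripts with a 3′ UTR, it was in 3 of 5 for TIA1 and 1 of 2 for TIAL1. For FMR1 it was in 5 of 11 and for FXR1 in 3 of 7. The letters GTGCAAT were not found in the annotated 3′ UTRs of G3BP1, CAPRIN1, ATXN2, ATXN2L and FXR2. Over the 12295 tested genes with a 3′ UTR, 16.1% held GTGCAAT, 4.01% held TCGGAGA and 3.58% held ACACGAA; 121 genes (0.984%) held both GTGCAAT and TCGGAGA.

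Library depth was 18232634 to 22088913 counts. SNHG5 siRNA replicate 2 stood apart: the chi-square of its counts against the other libraries of its group, divided by the degrees of freedom, was 8.61 and 8.81, whereas those libraries gave 1.91 with each other and pairs of controls gave 3.10 to 4.41. Of the 10 genes, 8 had their lowest CPM (counts scaled to library size with TMM factors) of the SNHG5 siRNA group in that library, and TIAL1 and FXR2 their highest. The same count was not made over all tested genes, so it does not set these genes apart. All 9 granulosa markers had counts, INHA the fewest (0.410 and 0.174 CPM), and their sum ranged from 8960 to 9219 CPM with control siRNA and from 7384 to 7931 CPM with SNHG5 siRNA, without overlap. The mean levels with control and SNHG5 siRNA were 3285 and 2440 CPM for KRT18 and 822 and 308 CPM for FST. In the same order, FSHR had 3.24 and 1.47 CPM and INHBA 59.4 and 58.0 CPM. FOXL2 had 25.3 and 28.6 CPM, NR5A1 35.9 and 38.4 CPM, and AMH 12.4 and 13.2 CPM, each with the higher mean after SNHG5 siRNA. VIM (4819 and 4689 CPM) and KRT18 made up most of the sum, so the sum says little about the other markers. Among 10 markers of other cell types, CYP17A1 and DAZL were at 0. The sum of the list, nearly all of it from COL1A1, ranged from 5522 to 5871 CPM with control siRNA and from 4258 to 4550 CPM with SNHG5 siRNA. CD68 had 22.3 and 26.0 CPM, near the level of FOXL2, and PTPRC 2.35 and 1.91 CPM, near that of FSHR. VWF had 1.59 and 1.74 CPM and CDH1 1.25 and 0.808 CPM. PECAM1, EPCAM and ZP3 had counts at lower levels. The part of either list in the results was not tested.

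G3BP2 (ENSG00000138757; chromosome 4, 75642782 to 75724525, minus strand) had 2825, 2822 and 2647 counts in the control libraries, in the order of their replicate numbers, and 7249, 6129 and 6147 counts in the SNHG5 siRNA libraries. This was 138, 139 and 146 CPM with control siRNA and 327, 308 and 316 CPM with SNHG5 siRNA. The groups lay far apart: the lowest SNHG5 siRNA library, replicate 2, had 308 CPM against 146 CPM in the highest control library, replicate 3. The group means were 141 ± 4.11 and 317 ± 9.47 CPM (SD, n = 3 each), a log2 fold change of 1.17 ± 0.05 (SE) in the edgeR fit, or 2.25-fold (95% interval 2.09 to 2.42). That was the 33rd highest log2 fold change of the 12508 tested genes; 59 genes passed the test with a rise of at least 1 on this scale.

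Its paralog G3BP1 (ENSG00000145907; chromosome 5, 151771045 to 151812785, plus strand) had 273, 281 and 282 CPM with control siRNA and 263, 256 and 265 CPM with SNHG5 siRNA. All 3 SNHG5 siRNA libraries were below all 3 control libraries, by a small margin. The log2 fold change was -0.09 ± 0.05 (SE), with a 95% interval of -0.19 to 0.01, and it did not pass the test (edgeR quasi-likelihood, Benjamini-Hochberg adjusted p = 0.134). It passed with upper quartile scaling, at -0.13 (edgeR adjusted p = 0.0331), and with the FPKM, 1 added and no filter, at -0.12 (limma adjusted p = 0.0473). CAPRIN1 (ENSG00000135387; chromosome 11, 34051683 to 34101156, plus strand), the partner that binds both G3BP proteins, had 481, 463 and 493 CPM with control siRNA and 470, 460 and 488 CPM with SNHG5 siRNA. Its groups overlapped throughout, and the log2 fold change of -0.02 had a 95% interval of -0.12 to 0.08.

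**Figure D1:**
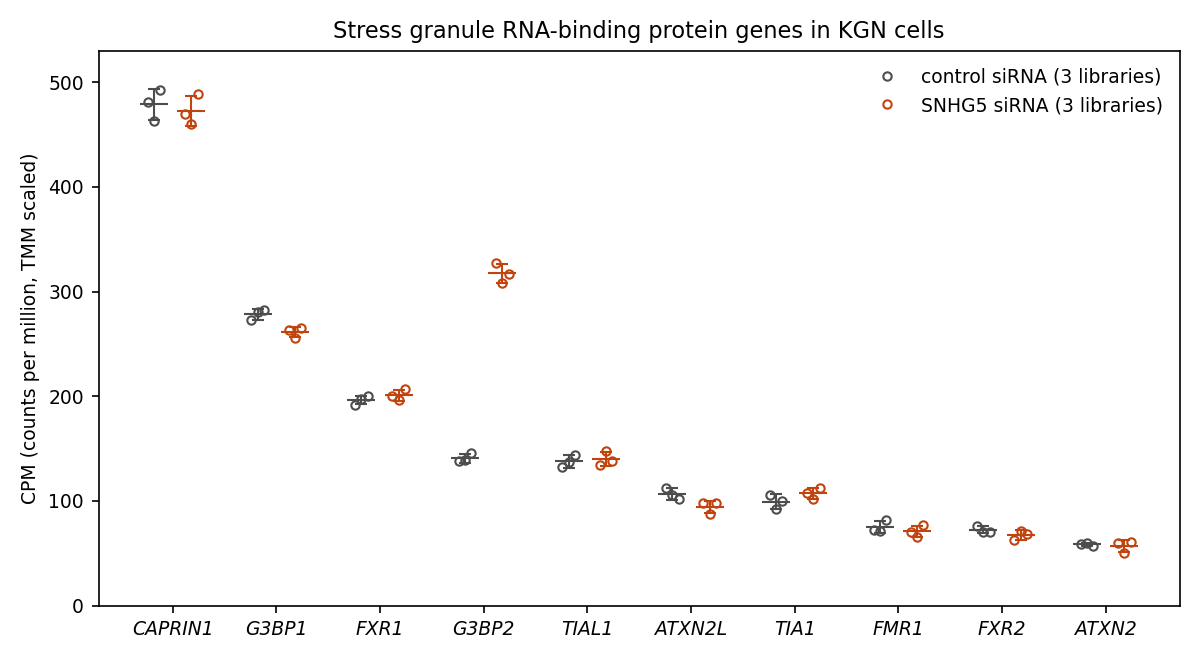
CPM of the 10 genes in the 6 libraries (circles), with the mean (horizontal line) and SD (bar) of each group of 3, on a linear axis from 0. G3BP2 had 141 and 317 CPM on average, while the groups of the other genes lay close together or overlapped.

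Of the 9 genes listed by function, 0 rose, 1 fell and 8 did not pass, where 40.2% of all tested genes passed (20.3% higher and 19.9% lower). The median of the 9 log2 fold changes was -0.04, with a range from -0.18 to 0.11, against -0.0052 over all tested genes; the median absolute value was 0.08 against 0.17. Control and SNHG5 siRNA libraries were fully separated in CPM in 2 of the 9, G3BP1 and ATXN2L, where 49.8% of all tested genes had groups without overlap. The 95% intervals of the 9 together spanned a fold of 0.811 to 1.18, so a change of the size of that in G3BP2 lay outside each of them. A p that missed the threshold does not show that these levels were equal.

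The gene of the 9 that fell belongs to the ataxin-2 family. ATXN2L (ENSG00000168488; chromosome 16, 28823035 to 28837237, plus strand) had 113, 106 and 102 CPM with control siRNA and 98.0, 87.6 and 97.8 CPM with SNHG5 siRNA. The groups did not overlap, and the lowest library was SNHG5 siRNA replicate 2. It fell by 0.18 ± 0.06 (SE) on the log2 scale (edgeR adjusted p = 0.0246). This call ended without control siRNA replicate 1 (-0.14, edgeR adjusted p = 0.139), control siRNA replicate 2 (-0.18, 0.0573) or SNHG5 siRNA replicate 2 (-0.12, 0.0579), and with the deposited FPKM (-0.08, limma adjusted p = 0.221 with 1 added). ATXN2, whose product binds poly(A)-binding protein, had 58.8, 60.0 and 57.0 CPM with control siRNA. In the SNHG5 siRNA libraries it had 60.2, 50.1 and 60.7 CPM. The low value of replicate 2 set the sign of its log2 fold change, which was -0.04 over all libraries and 0.05 without that library; neither passed.

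The U-rich RNA binders showed overlapping groups. TIA1, a translational repressor that carries prion-like sequence, had 106, 92.3 and 100 CPM with control siRNA and 108, 102 and 112 CPM with SNHG5 siRNA. The difference on the log2 scale was 0.11 ± 0.06 (SE; edgeR adjusted p = 0.165), and 0.15 (edgeR adjusted p = 0.0232) without SNHG5 siRNA replicate 2. TIAL1, which encodes TIAR, ranged from 132 to 144 CPM with control siRNA and from 135 to 148 CPM with SNHG5 siRNA, with a log2 fold change of 0.02 (95% interval -0.09 to 0.14).

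None of the 3 fragile X family genes passed over all libraries. FMR1, whose product FMRP represses translation of bound mRNAs, had 72.0, 70.9 and 81.5 CPM with control siRNA and 70.5, 65.7 and 76.7 CPM with SNHG5 siRNA. The groups overlapped, and the log2 fold change was -0.08 (95% interval -0.22 to 0.07). FXR1 ranged from 192 to 200 CPM with control siRNA and from 196 to 207 CPM with SNHG5 siRNA, a log2 fold change of 0.03 (95% interval -0.07 to 0.14). FXR2 had 70.1 to 76.5 CPM with control siRNA and 62.8 to 71.7 CPM with SNHG5 siRNA. The change on the log2 scale was -0.10 (edgeR adjusted p = 0.222), and -0.14 (edgeR adjusted p = 0.0496) without SNHG5 siRNA replicate 2. The 5 genes with a seed match therefore had log2 fold changes of 1.17 (G3BP2), 0.11 (TIA1), 0.02 (TIAL1), -0.08 (FMR1) and 0.03 (FXR1).

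**Figure D2:**
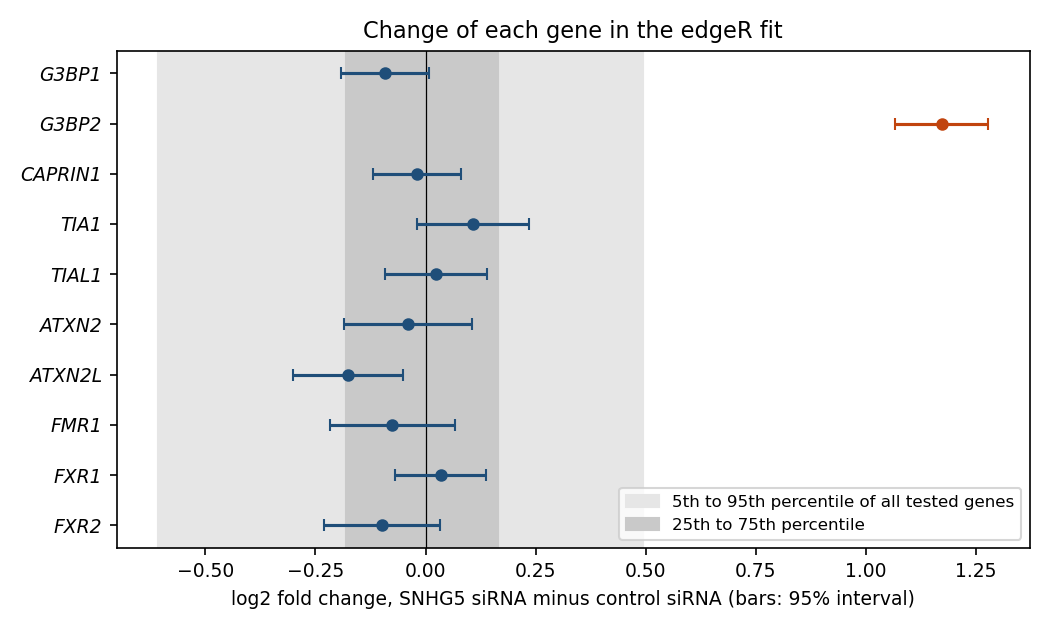
Log2 fold change of each gene (SNHG5 siRNA minus control siRNA, edgeR fit) with its 95% interval, over the 5th to 95th and 25th to 75th percentiles of all tested genes in grey. The 9 genes listed by function lie between -0.18 and 0.11, and G3BP2, picked for its rise, lies at 1.17, above the 95th percentile of 0.49.

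Levels of different genes were compared in the deposited FPKM, a unit scaled to length. The factor between CPM and FPKM of a gene was not fixed over the libraries, so changes in the 2 units can differ. With control siRNA the order was G3BP1 (74.5 ± 1.38 FPKM, SD, n = 3), CAPRIN1 (55.2 ± 1.72), G3BP2 (19.2 ± 0.275), FXR2, ATXN2L, FXR1, FMR1, TIAL1, TIA1 and ATXN2 (8.12 ± 0.135). The ranges of FXR2 and ATXN2L overlapped, as did those of TIA1 and ATXN2; the other neighbours in this order did not overlap. With SNHG5 siRNA G3BP2 kept its place in the order, at 43.2 ± 1.63 FPKM, below CAPRIN1 at 52.4 ± 2.62 FPKM, and the ranges of TIAL1 and FMR1 overlapped as well.

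The ratio of G3BP2 to G3BP1 and the shares held by G3BP2 follow from the rise for which G3BP2 was chosen. They are given as a description. The FPKM of G3BP2 were 0.252, 0.256 and 0.265 of those of G3BP1 in the 3 control libraries and 0.649, 0.627 and 0.620 in the SNHG5 siRNA libraries. G3BP2 made up 20.5% ± 0.404 of the summed G3BP FPKM with control siRNA and 38.7% ± 0.559 with SNHG5 siRNA (SD, n = 3). The sum itself was 93.7 ± 1.37 and 112 ± 3.53 FPKM. Of the summed FPKM of all 10 genes, G3BP2 held 8.14% ± 0.217 and 17.4% ± 0.505. The FPKM ratio of CAPRIN1 to G3BP1 was 0.741 ± 0.0293 and 0.766 ± 0.0159, and that of ATXN2 to ATXN2L was 0.499 ± 0.0134 and 0.508 ± 0.0233, with overlapping libraries. Taken from the counts instead, both ratios were higher in each SNHG5 siRNA library than in each control library. That difference was not tested. The FMR1 to FXR1 ratio was 0.891 ± 0.0400 and 0.839 ± 0.0263, where 1 SNHG5 siRNA library (0.869) lay above the lowest control library (0.857).

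**Figure D3:**
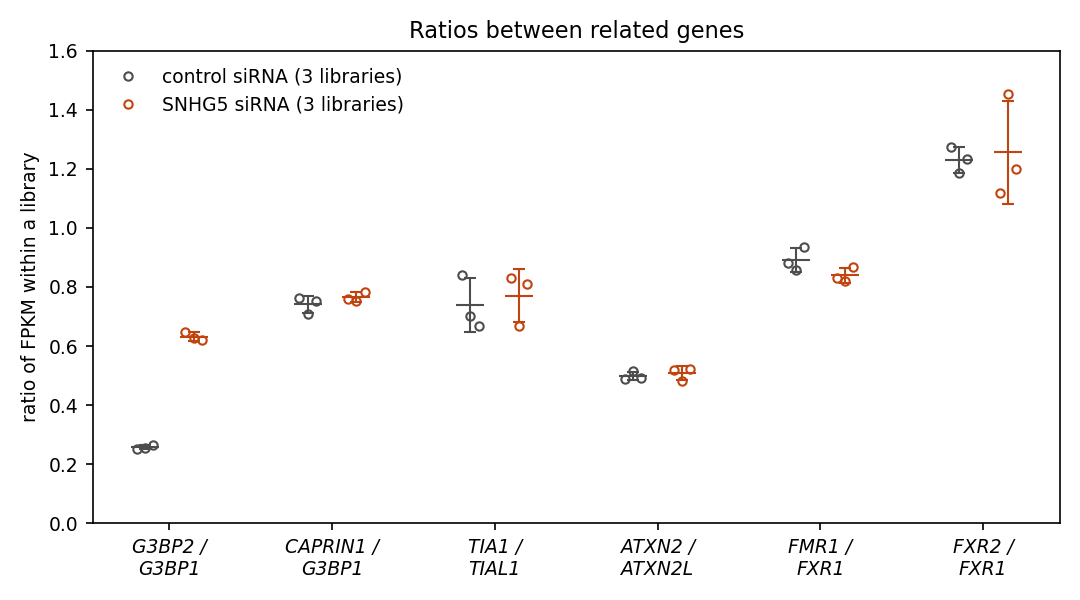
Ratio of FPKM between related genes within each library (circles), with the mean (line) and SD (bar) of each group of 3. The ratio of G3BP2, picked for its rise, to G3BP1 was 0.258 and 0.632 on average. The libraries of the 2 groups overlapped in the other 5 FPKM ratios. In ratios of counts they did not overlap for CAPRIN1 to G3BP1 and ATXN2 to ATXN2L.

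Genes that hold TCGGAGA were higher with SNHG5 siRNA more often than other genes, which is how the word had been found and is no independent evidence. Of the 493 tested genes with TCGGAGA, 167 (33.9%) rose and 61 (12.4%) fell, with a median log2 fold change of 0.10; of the genes without it, 19.9% rose and 20.3% fell, with a median of -0.0081. The word was in 14 (24.6%) of the 57 genes with a 3′ UTR that rose by at least 1 on the log2 scale, G3BP2 among them. Over all tested genes with a 3′ UTR the share was 4.01%. GTGCAAT was in 10 of the same 57 (17.5%), near its share of 16.1% over all. ACACGAA was in 1 of them (1.75%, against 3.58%). A larger log2 fold change than that of G3BP2 was seen in 9 genes with TCGGAGA and 8 with GTGCAAT. Of the 1974 genes with GTGCAAT, 22.3% rose and 18.2% fell, with a median of 0.02, against 20.1%, 20.4% and -0.0084 in genes without it. Of the 440 genes with ACACGAA, also found by the scan of these data, 10.0% rose and 43.2% fell. Without that word 20.8% rose and 19.2% fell. Genes with a word had longer 3′ UTRs: the median of the longest 3′ UTR was 2838 bases with TCGGAGA, 3279 bases with GTGCAAT and 1663 bases over all.

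The profile of G3BP2 over the 6 libraries was most like those of PERP, a membrane protein of cell junctions, ZW10, of the kinetochore, SETD7, a lysine methyltransferase, STX12, an endosomal syntaxin, and ERO1A, an oxidase of the endoplasmic reticulum. Likeness was the Euclidean distance of log2 CPM over the 6 libraries, centred on the control mean, and ranged from 0.0904 (PERP) to 0.169 (ERO1A). PERP had 72.7 ± 2.04 and 161 ± 1.39 CPM, and ZW10 22.8 ± 0.668 and 52.6 ± 0.597 CPM (SD, n = 3 each). Their levels differed from that of G3BP2, but the folds of the 5 were 2.19 to 2.31, by their choice close to its 2.25. The 3′ UTRs of ZW10 and SETD7 also hold TCGGAGA, those of SETD7 and STX12 hold GTGCAAT, and that of SETD7 also holds ACACGAA. Those of PERP and ERO1A hold none of these words. Over all tested genes with a 3′ UTR the shares were 4.01% (TCGGAGA), 16.1% (GTGCAAT) and 3.58% (ACACGAA). The 5 genes were picked for a profile like that of G3BP2, and TCGGAGA came from genes that were higher. Sharing that word is therefore no independent evidence.

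Other genes of the pathway were taken from 5 lists made by function, with 120 genes found and 118 tested. Over the lists, 19 rose, 29 fell and 70 did not pass, and the median log2 fold change was -0.03. Thus 40.7% passed, against 40.2% of all tested genes (20.3% higher and 19.9% lower). G3BP2 at 1.17 was above the highest value in any of the lists, that of ZCCHC3. It was chosen for its rise, so this comparison is a description only.

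Of 24 assembly partners, 3 rose, 8 fell and 13 did not pass (median log2 fold change -0.07). The share that passed was 45.8%, against 40.2% of all tested genes. CYFIP2, which binds FMRP and belongs to the WAVE actin complex, fell from 13.5 ± 0.812 to 6.41 ± 0.515 CPM (SD, n = 3 each), a log2 fold change of -1.08 ± 0.10 (SE; edgeR adjusted p = 1.51e-07). With the FPKM and 1 added the change of this low gene was -0.47. NUFIP1, another binding partner of FMRP, fell by 0.30, and ZCCHC3, a zinc finger protein that binds RNA, rose by 0.60. The G3BP-binding proteins UBAP2L, with 198 ± 7.37 and 198 ± 10.7 CPM, and USP10, with 134 ± 2.06 and 126 ± 2.51 CPM, did not pass (edgeR adjusted p = 0.963 and 0.185). The groups of USP10 did not overlap, as in 49.8% of all tested genes. UBAP2, of the same list, rose by 0.19 (edgeR adjusted p = 0.0202). UBAP2L, USP10 and UBAP2 are named here after their values were seen. The number of this list that rose was 1 without SNHG5 siRNA replicate 3, 1 without control siRNA replicate 1, and 5 without SNHG5 siRNA replicate 2.

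Of 34 tested further RNA-binding proteins found in stress granules, 4 rose, 6 fell and 24 did not pass (median 0.01). The share that passed was 29.4%, against 40.2% of all tested genes. Among those that passed, CPEB4 had -0.34, CPEB2 0.30 and ZFP36, which promotes decay of AU-rich mRNAs, -0.26. The call of ZFP36 ended in 10 of 14 alternatives, including each one that left out a library except control siRNA replicate 2. That of CPEB4 ended without control siRNA replicate 3 (-0.26), and that of CPEB2 with the FPKM, 1 added and no filter (0.20). The number of this list that rose was 7 without SNHG5 siRNA replicate 2 and 2 without control siRNA replicate 1.

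Of 17 genes that set eIF2 activity, 4 rose, 6 fell and 7 did not pass (median -0.10). The share that passed was 58.8%, against 40.2% of all tested genes. EIF2B4, a subunit of the exchange factor eIF2B, fell from 35.8 ± 2.30 to 24.0 ± 1.04 CPM (-0.58; edgeR adjusted p = 6.34e-06), and its 3′ UTR holds ACACGAA. The scan of these data had put that word with lower genes, so its presence here is no independent evidence. PPP1R15B, which directs phosphatase 1 to eIF2 alpha, fell by 0.32, while the catalytic subunits PPP1CC and PPP1CB rose by 0.36 and 0.33. The median of the list was -0.02 with the FPKM, and 3 of its genes fell without control siRNA replicate 2.

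Of 26 genes for P-bodies and mRNA decay, 7 rose, 2 fell and 17 did not pass (median -0.01). The share that passed was 34.6%, against 40.2% of all tested genes. Those named by size were the decapping enzyme DCP2 (0.37), the decapping factor EDC3 (0.35), PAN2, a deadenylase (0.32), and LSM1, of the ring that binds shortened mRNA tails (0.29). With the FPKM and no filter 3 of this list rose, and the calls of DCP2 and LSM1 ended.

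Of 17 genes for modification and clearance of stress granules, 1 rose, 7 fell and 9 did not pass (median -0.09). The share that passed was 47.1%, against 40.2% of all tested genes. SQSTM1, the autophagy receptor p62, had 1282, 1307 and 1224 CPM with control siRNA and 641, 656 and 613 CPM with SNHG5 siRNA, or 0.501 of the control level (95% interval 0.467 to 0.536; edgeR adjusted p = 1.24e-11). HSPB8, a small heat shock protein, fell by 0.46, DYRK3, a kinase that dissolves condensates, by 0.24, and the arginine methyltransferase PRMT1 by 0.23; the call of PRMT1 ended with the FPKM (-0.11). The number lower was 4 with any of 4 libraries left out, namely each control siRNA replicate except 3 and each SNHG5 siRNA replicate except 2, and 3 with the FPKM.

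**Figure D4:**
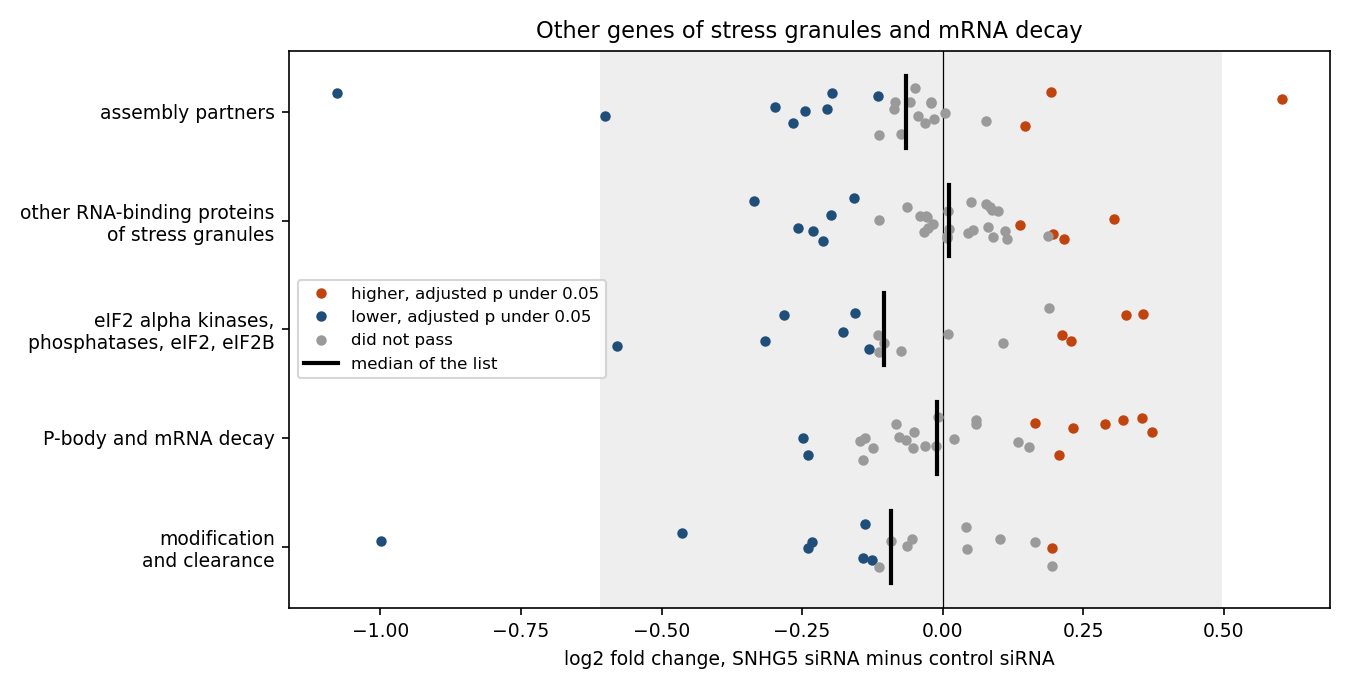
Log2 fold change (SNHG5 siRNA minus control siRNA) of the 118 tested genes in 5 lists, coloured by the edgeR call, with the median of each list as a black line and the 5th to 95th percentile of all tested genes in grey. Medians lie between -0.10 and 0.01; CYFIP2 (-1.08) and SQSTM1 (-0.998) are farthest left and ZCCHC3 (0.60) farthest right.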

How the data were processed

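The 6 KGN libraries, 3 per group, were made from total RNA with an mRNA-seq kit, per the labels' protocols. Per the submitters' processing notes, Trimmomatic and the GRCh38 build were used by the authors; for the aligner, the counting program and its use of strand, nothing was given in the sources used here. Deposited counts are whole numbers per gene name that were not normalised by the authors. FPKM is a unit scaled to length and library size, but the deposited values did not follow from 1 fixed length per gene. From control siRNA replicate 1 to SNHG5 siRNA replicate 2, ATXN2L went from 113 to 87.6 CPM and from 16.8 to 14.6 FPKM. G3BP1 went from 273 to 256 CPM and from 74.8 to 66.0 FPKM. The reason was not tested. Of the 20030 names, 27 read as calendar dates (0.257% of counts) and were never named.

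Counts were scaled by TMM and genes passing filterByExpr were tested with edgeR 4.0.16 (R 4.3.3; quasi-likelihood test, 2-sided), with Benjamini-Hochberg adjustment over all 12508 tested genes and a threshold of 0.05; intervals of log2 fold changes are 95% intervals from that fit. The test was checked on simulated data. The labels do not say whether replicates were separate cultures, so p-values measure the spread between these samples, which may be technical. As alternatives, DESeq2 1.42.0, limma 3.58.1 on log2(FPKM + 1) or log2(FPKM + 0.1) with a mean FPKM of at least 0.5, other scalings, no filter, a replicate block and leaving out each library were run. Python 3.11.15 and matplotlib 3.10.9 served for words and plots.

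The members and lists were chosen with earlier results of these data known. Named were all 10 genes, up to 4 passing genes per list by absolute log2 fold change, and the 5 genes with profiles nearest to G3BP2. UBAP2L, USP10 and UBAP2 were named after their values were seen. Some items that meet this rule are not reported here. Some exons overlap other genes: TIA1 shares 211 bases with C2orf42 on the same strand, and on the opposite strand G3BP1 shares 130 bases with ATOX1, FXR2 192 with MPDU1, ATXN2 69 with SH2B3, and ATXN2L 524 and 292 with antisense genes. Reads there cannot be assigned with certainty.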

Additional observations from a re-analysis of the deposited data

How the results depend on the processing

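The log2 fold change of G3BP2 was 1.15 to 1.20 with 1 library left out and 1.13 with the FPKM and 1 added, with or without the filter. The number of the 9 genes listed by function that fell was 2 with upper quartile scaling, 0 with either added value in the filtered FPKM, 1 (G3BP1) with no filter, and 0 to 1 with 1 library left out; the number that rose was 0 to 1 with 1 library left out. Over all genes, 2538 rose and 2488 fell, and 1599 (1 added), 1597 (0.1 added) or 1564 (no filter) fell with the FPKM; 50.5% of passing genes were higher with TMM and 39.9% with upper quartile scaling. In the lists, upper quartile scaling gave 1 assembly partner and 0 clearance genes higher and 4 decay genes lower. With no count filter 4 clearance genes were lower, and with DESeq2's test 0 were higher. With the FPKM, 3 clearance genes were lower, as were 3 (filter) or 2 (no filter) further RNA-binding proteins, and 3 decay genes were higher with no filter. With 1 library left out, 1 to 5 assembly partners, 2 to 7 further RNA-binding proteins and 0 to 3 clearance genes were higher, and 4 to 7 clearance genes and 3 to 7 eIF2 genes were lower. Whether the replicate numbers pair the samples cannot be told from 3 libraries a group. Deviations of same-numbered libraries correlated at 0.03 to 0.13, and those of differently numbered libraries at -0.12 to 0.08. With the replicate block 5714 genes passed against 5026, G3BP2 had 1.17, and 3 clearance genes were higher. G3BP2 had at least 2647 counts per library; 3 libraries a group limit the precision of every value.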
